A study of Mus musculus with 4 samples.

Results

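Ly6 genes and interferon-induced genes encode small surface and antiviral proteins, and 8 of them were followed here in the embryonic mouse heart: Ly6a, Ly6c1, Ly6e, Bst2, Ifitm2, Ifitm3, Ifit3 and Isg15. They were selected on measured values of the comparison of Ets1 endothelial knockout (eKO) with control cells in these same data, so that comparison is described for them with values and no test. They are 8 of the 32285 genes in the count matrices. Differences between endothelial classes within a library did not choose them, but the sums compared include values that did. Each class difference is therefore also given from the control libraries alone, as a value with no test. For Isg15, Ifit3, Bst2 and Ifitm3, whose eKO values in mEndo lay furthest above control, differences from mEndo were not read as tests at all, nor were those of Ly6a and Ly6c1, which had few UMIs in mEndo.

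The study profiled single cells of ventricles at embryonic day 14.5 on the C57BL/6 background with 10x Genomics 3' v3.1 chemistry. Control embryos were Tie2Cre;Ets1 fl/+ and eKO embryos Tie2Cre;Ets1 fl/fl, so Cre was present in controls too and each control cell started with 1 floxed allele. The paper used Tie2Cre for deletion in cardiac endothelium, and its action in other cells was not tested here. Each library pooled 3 embryos in batch 1 without treatment, and there were 2 control and 2 eKO libraries. The paper used embryos of both sexes and did not genotype their sex, so the sexes within each pool are not known.

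Values of the libraries are given in the order control 1, control 2, eKO 1 and eKO 2. They held 124140739, 76931208, 95131419 and 102872196 unique molecular identifiers (UMIs), and 10296, 6796, 8519 and 12302 cells were kept. Median UMIs per cell were 8770.0, 8661.5, 8336 and 5354.5, so eKO 2 was the shallowest library per cell. Cells were placed in classes by marker scores that used no member gene: coronary vascular endothelial cells (cvEC, 1442 cells), mural endocardial cells (mEndo, 3891) and valve endocardial cells (vEndo, 540). Levels are UMIs summed per class and library, as CPM (the counts of a gene scaled to the total of its sum). Whether reads in introns were counted is not stated in the sources used.

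Ly6 proteins are small folded domains held at the cell surface by a lipid anchor. Ly6a is the stem cell antigen Sca-1, Ly6c1 carries the Ly6C epitope used to sort monocytes and is also found on endothelium, and Ly6e binds syncytin in the placenta. Isg15 is a ubiquitin-like protein that is joined to other proteins. Ifit3 works with its relatives that bind foreign RNA, Bst2 tethers budding virus to the membrane, and Ifitm2 and Ifitm3 hinder fusion of virus with endosomes. Many interferon-induced genes carry the interferon-stimulated response element (ISRE) in their promoters.

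Ets1, the deleted gene, was lower in every eKO library in each endothelial class. In mEndo it was 283, 264, 122 and 95.2 CPM, in cvEC 369, 323, 179 and 127 CPM, and in vEndo 260.3, 244, 103 and 106 CPM. It fell by 1.28 log2 units in mEndo (SE 0.14; edgeR quasi-likelihood, Benjamini-Hochberg adjusted p 4.82e-04; both eKO libraries below both controls). The fall in cvEC was 1.10 (SE 0.18, same test, adjusted p 0.0285, both eKO libraries below both controls). In vEndo it was 1.23 (SE 0.17, same test, adjusted p 0.00851, both eKO libraries below both controls), and without control 1 that value was −1.17 and did not pass (adjusted p 0.159), nor did it with no count filter (−1.25, adjusted p 0.204). Its level elsewhere was 92.9, 82.2, 57.6 and 55.1 CPM in fibroblasts and 6.26, 6.30, 8.99 and 8.96 CPM in cardiomyocytes. Both eKO libraries lay below both controls in fibroblasts (log2 fold change −0.54, SE 0.12) and above them in cardiomyocytes (0.64, SE 0.12). In mural cells it was 190.3, 132, 133 and 119 CPM and in immune cells 20.5, 6.89, 14.1 and 15.6 CPM, with the groups overlapping in both, as in epicardial cells (8.64, 13.9, 13.0 and 17.7 CPM). Counts from the 3' end do not show whether the deleted exons were missing from the remaining transcripts, and the sources used do not name those exons.

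Across all genes, 526 of 12800 passed in mEndo between genotypes, with 242 higher (1.89%) and 284 lower (2.22%) in eKO. Scaling by total counts gave 177 higher and 345 lower in mEndo. Without single libraries the number ranged from 348 (without control 1) to 1340 (without eKO 1). In cvEC 62 of 11253 genes passed, 41 higher (0.364%) and 21 lower (0.187%), or 45 and 50 with total count scaling, and from 126 (without eKO 2) to 505 (without eKO 1) with a library left out. In vEndo 33 of 9512 passed, 19 higher (0.2%) and 14 lower (0.147%), or 19 and 24 with total count scaling, and from 10 (without control 1) to 68 (without eKO 1) with a library left out. Both eKO libraries lay above both controls for 20.5% of genes and below them for 32.4% in mEndo, 14.4% and 31.4% in cvEC, and 16.8% and 24.2% in vEndo. The members were chosen on such values, so nothing is read from these shares about them. Of the members that met the count filter, 5 lay above, 0 below and 1 overlapped in mEndo, 1, 2 and 4 in cvEC, and 2, 1 and 1 in vEndo. Immune cells numbered 117, 62, 142 and 205, and 1 of 7812 genes passed between genotypes there. Of 7 members that met the filter in immune cells 4 lay above, 0 below and 3 overlapped. The share of all genes without overlap is not given for immune cells, so nothing is read from the order of members there.

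**Figure D1:**
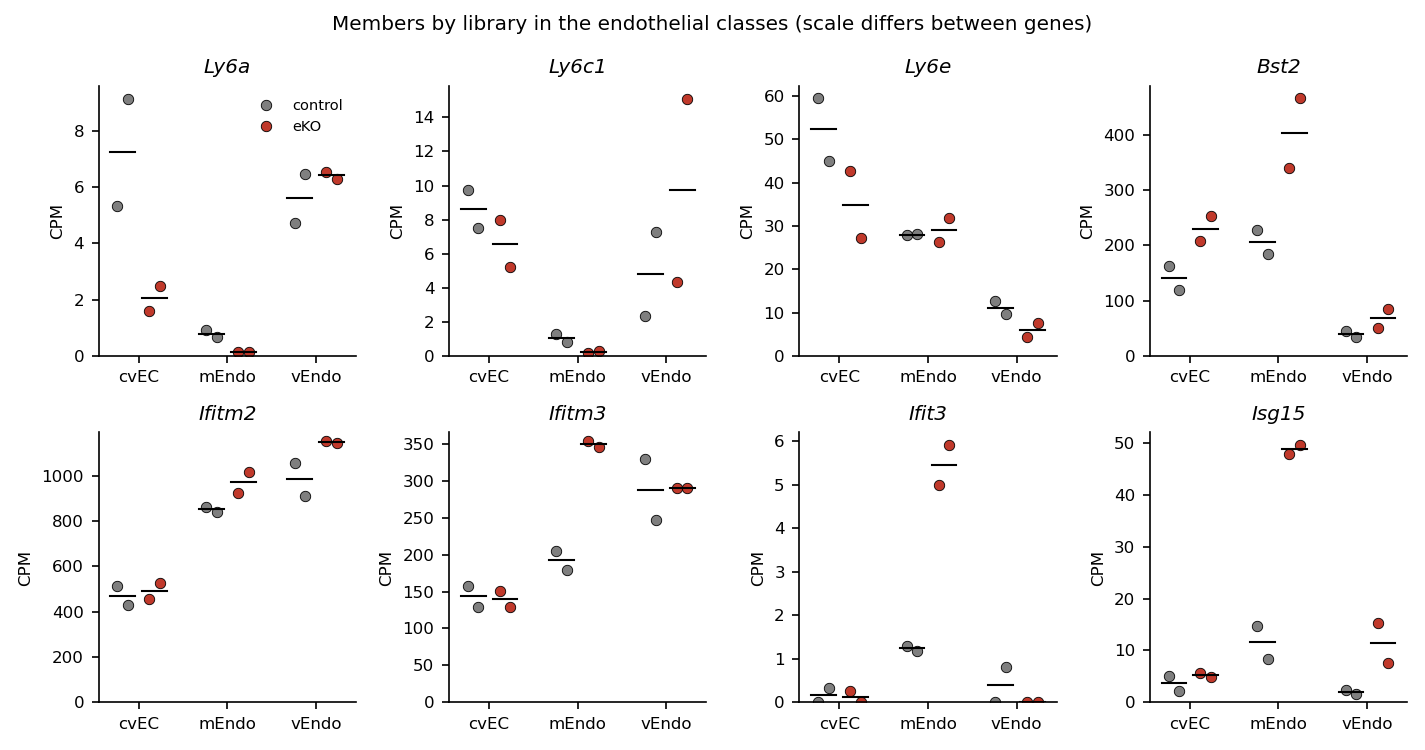
Level of each member in every library in the 3 endothelial classes, in CPM. Control and Ets1 eKO libraries are shown apart, with replicate 1 to the left of replicate 2 and a line at the mean, and the scale differs between genes.

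Isg15, the ubiquitin-like modifier, was highest in immune cells and next in mEndo. Its promoter is shown because it holds the densest run of ISRE matches among the members. The RefSeq start of Isg15 (ENSMUSG00000035692) lies on chromosome 4, and the 250 bases before it and 50 after are 4:156200769-156201068, minus strand, GRCm38.p6, with ISRE matches in capitals.
Isg15: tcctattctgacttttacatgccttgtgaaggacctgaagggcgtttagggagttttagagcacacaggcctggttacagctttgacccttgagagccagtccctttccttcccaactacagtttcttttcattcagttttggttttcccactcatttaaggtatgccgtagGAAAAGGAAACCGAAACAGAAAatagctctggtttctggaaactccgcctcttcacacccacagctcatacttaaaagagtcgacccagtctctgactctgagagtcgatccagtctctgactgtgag
In control libraries the order of mean levels was immune cells 98.8, mEndo 11.5, cvEC 3.71, mural cells 3.11, fibroblasts 2.21, vEndo 1.99, epicardial cells 1.95 and cardiomyocytes 0.61 CPM. From cvEC to epicardial cells each class overlapped the next. In the control libraries alone the log2 difference of Isg15 was −1.43 (SE 0.28) for cvEC against mEndo and −2.55 (SE 0.51) for vEndo against mEndo, lower in both libraries. With the eKO libraries included these were −2.45 and −2.23, lower in 4 of 4 libraries. Within cvEC it was higher in arterial than in other cells by 2.02 (SE 0.41; edgeR quasi-likelihood, Benjamini-Hochberg adjusted p 2.51e-04; 4 of 4 libraries; 2.07 in controls alone), at 11.2, 8.13, 17.1 and 10.1 CPM against 3.49, 0.816, 3.20 and 4.02 CPM. These rest on few UMIs, 13, 5, 11 and 7 in arterial and 15, 2, 10 and 15 in other cvEC. In other cvEC of control 2, 3 UMIs amount to 1.22 CPM, so its value lies below that level.

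Between genotypes Isg15 in mEndo was 14.7, 8.42, 47.9 and 49.6 CPM, from 113, 50, 326 and 378 UMIs. Both eKO libraries lay above both controls, with log2 fold change 2.11 (SE 0.21), a ratio of 4.31; without control 1 it was 2.57. In cvEC the level was 5.13, 2.28, 5.57 and 4.97 CPM and the groups overlapped (0.48, SE 0.40; 1.26 without control 1). In vEndo it rested on 3, 2, 14 and 6 UMIs (2.36, 1.61, 15.2 and 7.55 CPM) and did not meet the count filter, and 3 UMIs there amount to 2.36, 2.42, 3.26 and 3.77 CPM. In immune cells it was 101, 96.4, 174 and 156 CPM (0.75, SE 0.23), with both eKO libraries above both controls.

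At 2000 UMIs drawn from each cell, Isg15 was seen in 2.11, 1.66, 8.76 and 7.75% of mEndo cells. The 95% intervals were 1.27 to 3.27, 0.832 to 2.95, 6.89 to 10.9 and 6.41 to 9.28%, and cover the sampling of cells only, not the spread between libraries. In cardiomyocytes, taken as a measure of free RNA in the droplets, it was seen in 0.169, 0.0385, 0.0847 and 0.129%. Median depth before the draw was 6065 UMIs in mEndo and 10697 in cardiomyocytes. A second random draw of 2000 UMIs per cell gave 19, 11, 63 and 107 mEndo cells with Isg15, and in these the level of Bst2 was 632, 591, 429 and 762 CPM against 224, 217, 340.4 and 454 CPM in the other mEndo cells. Few cells show an Isg15 UMI at this depth, so the others are not cells without Isg15. Ifitm3 was 368, 136, 539.7 and 621 CPM in the Isg15-positive cells, where the value of control 2 rests on 3 UMIs. In the rest Ifitm3 was 189, 169.7, 334 and 334 CPM. Ly6e was 52.6, 45.5, 31.7 and 18.7 CPM against 28.3, 28.4, 23.8 and 26.9 CPM, from 2, 1, 4 and 4 UMIs in the Isg15-positive cells. Ifit3 was 0, 0, 7.94 and 37.4 CPM against 0.567, 1.54, 3.397 and 3.85 CPM, from at most 8 UMIs in the positive cells. The other type I interferon-stimulated genes summed to 1184, 1545, 2349 and 2149.5 CPM against 1169.5, 1046, 1503 and 1337 CPM. Endothelial markers summed to 3974, 4864, 4405 and 4832 CPM in the Isg15-positive cells and 4723, 4534, 4198 and 4590 CPM in the rest.

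Immune cells carried the most Isg15, so their trace in mEndo was measured. The 8 immune markers summed to 13.0, 8.09, 7.34 and 8.39 CPM in mEndo, from 100, 48, 50 and 64 UMIs, with Cd53 the most abundant. None was at 0 over the 4 libraries together, and Ptprc had 0, 0, 1 and 2 UMIs. Leaving out the 73, 41, 45 and 60 mEndo cells with an immune marker UMI left Isg15 at 14.9, 8.61, 48.9 and 47.8 CPM, Bst2 at 225, 185, 343 and 468 CPM and Ifitm3 at 203, 182, 354 and 344 CPM. As log2 ratios of mean CPM, Isg15 was 2.08 with all mEndo cells and 2.04 without those cells. The same ratios were 2.14 and 2.09 for Ifit3, 0.97 and 0.98 for Bst2, and 0.86 and 0.86 for Ifitm3. Cells with immune RNA but no marker UMI drawn remain in these values. That comparison was chosen after seeing the data.

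Ifit3, the RNA-sensing partner, was almost absent outside immune cells and mEndo. Its promoter is shown for its paired ISRE matches on the opposite strand, at 19:34583279-34583578, plus strand, GRCm38.p6, from RefSeq.
Ifit3: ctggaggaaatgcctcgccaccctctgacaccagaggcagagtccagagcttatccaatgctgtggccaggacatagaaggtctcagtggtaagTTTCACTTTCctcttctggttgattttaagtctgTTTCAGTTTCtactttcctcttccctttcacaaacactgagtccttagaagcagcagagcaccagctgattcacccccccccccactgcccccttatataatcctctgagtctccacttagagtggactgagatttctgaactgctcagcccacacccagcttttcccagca
Mean control levels were 39.4 CPM in immune cells, 1.24 in mEndo and 0.40 in vEndo, and from vEndo downwards each class overlapped the next: cardiomyocytes 0.22, fibroblasts 0.19, cvEC 0.16, and epicardial and mural cells 0. Ifit3 had 0, 1, 1 and 0 UMIs in cvEC and 0, 1, 0 and 0 in vEndo, too few for a class difference to be read. In mEndo Ifit3 was 1.30, 1.18, 4.99 and 5.90 CPM, from 10, 7, 34 and 45 UMIs. Both eKO libraries lay above both controls (2.17, SE 0.38; ratio 4.50). It was seen in 0.222, 0.151, 1.5 and 0.711% of mEndo cells at 2000 UMIs, against 0.0846, 0.0385, 0.0282 and 0.0184% of cardiomyocytes. Ifit3 did not meet the count filter in cvEC or vEndo and was not compared between arterial and other cvEC. In immune cells Ifit3 was 39.7, 39.0, 73.6 and 34.7 CPM and the groups overlapped (0.48, SE 0.35). Its near-identical paralog Ifit3b had 58 UMIs in mEndo beside 96 of Ifit3, and reads shared by such paralogs may have been dropped or misplaced. Ifit3b was 1.69, 1.35, 3.08 and 2.10 CPM in mEndo, with both eKO libraries above both controls. Its log2 fold change was 0.79 and did not pass (SE 0.43; edgeR quasi-likelihood, Benjamini-Hochberg adjusted p 0.308).

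Bst2, the tether of budding virus, was highest in immune cells, then in mEndo and cvEC. Its promoter is shown because an ISRE match overlaps a match of the gamma-activated sequence (GAS), at 8:71537423-71537722, minus strand, GRCm38.p6, from RefSeq.
Bst2: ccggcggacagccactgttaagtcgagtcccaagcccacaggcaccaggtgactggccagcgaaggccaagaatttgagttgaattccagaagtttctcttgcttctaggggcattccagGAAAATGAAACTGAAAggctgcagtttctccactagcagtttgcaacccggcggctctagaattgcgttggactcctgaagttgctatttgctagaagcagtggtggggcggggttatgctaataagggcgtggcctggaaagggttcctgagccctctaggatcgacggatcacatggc
Mean control levels were 314 CPM in immune cells, 206 in mEndo, 141 in cvEC, 39.4 in vEndo, 31.3 in mural cells, 9.03 in fibroblasts, 7.36 in epicardial cells and 4.75 in cardiomyocytes. The vEndo and mural cell values overlapped, as did those of the last 3 classes in turn. In the control libraries alone the log2 difference of Bst2 was −0.38 (SE 0.08) for cvEC against mEndo and −2.42 (SE 0.14) for vEndo against mEndo, lower in both libraries. With the eKO libraries included these were −0.51 and −2.54, lower in 4 of 4 libraries. Arterial cvEC held more than other cvEC by 0.65 (SE 0.08; edgeR quasi-likelihood, Benjamini-Hochberg adjusted p 2.23e-07; 4 of 4 libraries; 0.68 in controls alone). The arterial level of Bst2 was 224, 168, 294 and 318 CPM and that of other cvEC 147, 106, 190.1 and 241 CPM.

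Both eKO libraries lay above both controls for Bst2 in all 3 endothelial classes. In mEndo it was 228, 184, 339.8 and 466 CPM (log2 fold change 1.02, SE 0.17, ratio 2.03). In cvEC it was 163, 118, 208 and 253 CPM (0.79, SE 0.18, ratio 1.73). The vEndo level was 44.8, 33.9, 51.1 and 85.5 CPM (0.82, SE 0.27), and the stricter marker gate moved this value to 0.09. Bst2 was seen in 34.1, 30.4, 47.6 and 55.7% of mEndo cells and 20.9, 20.1, 32.0 and 40.4% of cvEC at 2000 UMIs, against 1.08, 0.732, 0.847 and 1.31% of cardiomyocytes. Immune cells overlapped between genotypes at 315, 312, 304 and 460.03 CPM (0.30, SE 0.24).

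Ifitm3 and Ifitm2, the fusion inhibitors, lie 53.6 kb apart on chromosome 7 and are close in sequence, so reads of one may count for the other. Both promoters are shown for comparison of where their ISRE matches fall. That of Ifitm3 is 7:141010695-141010994 and that of Ifitm2 7:140955912-140956211, both on the minus strand of GRCm38.p6, from RefSeq.
Ifitm3: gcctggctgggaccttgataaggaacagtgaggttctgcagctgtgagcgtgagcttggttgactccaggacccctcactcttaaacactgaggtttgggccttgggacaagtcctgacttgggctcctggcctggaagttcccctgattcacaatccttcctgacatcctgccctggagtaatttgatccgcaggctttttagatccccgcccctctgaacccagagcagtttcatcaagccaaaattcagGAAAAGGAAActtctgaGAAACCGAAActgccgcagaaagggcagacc
Ifitm2: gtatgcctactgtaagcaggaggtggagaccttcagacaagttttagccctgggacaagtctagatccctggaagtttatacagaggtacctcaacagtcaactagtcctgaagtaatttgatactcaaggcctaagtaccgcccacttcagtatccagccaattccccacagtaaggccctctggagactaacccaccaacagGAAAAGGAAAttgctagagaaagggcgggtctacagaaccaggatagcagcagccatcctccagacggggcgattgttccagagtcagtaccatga
Mean control levels of Ifitm3 were 509 CPM in immune cells, 287 in vEndo, 192 in mEndo, 168 in mural cells, 143 in cvEC, 126 in fibroblasts, 31.4 in epicardial cells and 1.96 in cardiomyocytes. From mEndo to fibroblasts each class overlapped the next. In the control libraries alone the log2 difference of Ifitm3 was −0.26 (SE 0.08) for cvEC against mEndo, lower in both libraries, and 0.54 (SE 0.11) for vEndo against mEndo, higher in both. With the eKO libraries included these were −0.71, lower in 4 of 4 libraries, and 0.11, higher in 2 of 4. Arterial and other cvEC did not differ past the threshold (0.13, SE 0.09; edgeR quasi-likelihood, Benjamini-Hochberg adjusted p 0.275; higher in 2 of 4 libraries; 0.16 in controls alone).

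In mEndo Ifitm3 was 205, 179.8, 354 and 346 CPM, so both eKO libraries lay above both controls (log2 fold change 0.92, SE 0.13, ratio 1.89). In cvEC it was 158, 129, 150.2 and 129 CPM, and in vEndo 329, 246, 290.1 and 290.5 CPM, with the groups overlapping in each (0.04, SE 0.15, and 0.06, SE 0.18). It was seen in 30.1, 31.0, 46.7 and 46.3% of mEndo cells at 2000 UMIs, against 0.613, 0.154, 0.48 and 0.608% of cardiomyocytes. In immune cells Ifitm3 was 652, 365, 921 and 961 CPM (0.89, SE 0.24), with both eKO libraries above both controls.

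Ifitm2 was widespread. Mean control levels were 985 CPM in vEndo, 852 in mEndo, 685 in mural cells, 496 in epicardial cells, 471 in fibroblasts, 471 in cvEC, 252 in immune cells and 94.8 in cardiomyocytes, with overlap of neighbours from mEndo to cvEC. It was lower in cvEC than in mEndo (−0.75 log2 units, SE 0.06; edgeR quasi-likelihood, Benjamini-Hochberg adjusted p 8.22e-08; 4 of 4 libraries; −0.70 in controls alone). Its higher level in vEndo than in mEndo did not pass (0.18, SE 0.07, adjusted p 0.0805, 4 of 4 libraries; 0.17 in controls alone), but did with total count scaling (0.23, adjusted p 0.0152) and the stricter gate (0.32, adjusted p 0.00338). Arterial cvEC held more than other cvEC by 0.59 (SE 0.07, adjusted p 4.34e-08, 4 of 4 libraries; 0.55 in controls alone). The arterial level of Ifitm2 was 666, 553, 682 and 642 CPM and that of other cvEC 470.2, 398, 411 and 506 CPM.

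Between genotypes Ifitm2 was 864, 839.6, 925 and 1019 CPM in mEndo (log2 fold change 0.24, SE 0.15), both eKO libraries above both controls. It was 512, 429, 457 and 527 CPM in cvEC (0.15, SE 0.16), where the groups overlapped. The vEndo level was 1058, 911, 1155 and 1145 CPM (0.27, SE 0.17), again with both eKO libraries above both controls. Ifitm2 was seen in 77.9, 75.8, 78.8 and 84.4% of mEndo cells at 2000 UMIs and in 17.9, 15.4, 17.0 and 19.1% of cardiomyocytes, so part of its share may be free RNA. In immune cells it was 306, 197, 358 and 394 CPM (0.58, SE 0.24), both eKO libraries above both controls.

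Ly6e, the syncytin receptor, was mainly a gene of immune and epicardial cells. Mean control levels were 391 CPM in immune cells, 273 in epicardial cells, 52.3 in cvEC, 28.0 in mEndo, 21.6 in fibroblasts, 21.2 in mural cells, 11.1 in vEndo and 5.14 in cardiomyocytes, and immune overlapped epicardial cells and fibroblasts overlapped mural cells. Ly6e was higher in cvEC than in mEndo by 0.76 log2 units (SE 0.15; edgeR quasi-likelihood, Benjamini-Hochberg adjusted p 6.28e-04; 3 of 4 libraries; 1.09 in controls alone). It was lower in vEndo than in mEndo (−1.72, SE 0.23, adjusted p 6.65e-05, 4 of 4 libraries; −1.36 in controls alone). Both eKO libraries of Ly6e lay below both controls in cvEC and in vEndo, and these sums entered both tests. Their p-values may therefore be partly set by the choice of members. Arterial and other cvEC did not differ past the threshold (0.11, SE 0.15, adjusted p 0.638, higher in 2 of 4 libraries; 0.13 in controls alone), and that value was −0.08 without control 1.

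Ly6e in cvEC was 59.5, 45.0, 42.7 and 27.1 CPM between genotypes, with both eKO libraries below both controls (log2 fold change −0.52, SE 0.22, ratio 0.70). In mEndo it was 27.9, 28.1, 26.3 and 31.9 CPM and the groups overlapped (0.11, SE 0.16; −0.06 without eKO 2). The vEndo level was 12.6, 9.69, 4.35 and 7.55 CPM (−0.88, SE 0.52), with both eKO libraries below both controls. It rests on only 16, 12, 4 and 6 UMIs, as does the difference of vEndo from mEndo. It was seen in 9.69, 6.86, 7.74 and 2.85% of cvEC at 2000 UMIs, against 0.951, 0.809, 0.903 and 0.939% of cardiomyocytes. In immune cells Ly6e was 489, 292, 596 and 527 CPM (0.53, SE 0.24), both eKO libraries above both controls.

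Ly6a, the Sca-1 gene, lies 34.97 kb from Ly6e on chromosome 15 and was low in all endothelium. Mean control levels were 13.2 CPM in immune cells, 7.22 in cvEC, 5.59 in vEndo, 0.79 in mEndo, 0.08 in fibroblasts and 0.01 in cardiomyocytes, with 0 UMIs in epicardial and mural cells of the controls. Immune cells overlapped cvEC and cvEC overlapped vEndo. In the control libraries alone the log2 difference of Ly6a was 3.22 (SE 0.45) for cvEC against mEndo and 2.71 (SE 0.65) for vEndo against mEndo, higher in both libraries. These rest on 57 UMIs in cvEC, 14 in vEndo and 11 in mEndo of the controls. With the eKO libraries included they were 3.36 and 3.53, higher in 4 of 4 libraries. Arterial cvEC held 1, 4, 0 and 0 UMIs of Ly6a, too few for a difference from other cvEC to be read.

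In cvEC Ly6a was 5.31, 9.13, 1.59 and 2.49 CPM between genotypes, from 29, 28, 6 and 11 UMIs. Both eKO libraries lay below both controls (log2 fold change −1.63, SE 0.44, ratio 0.32; −2.05 without control 1). It did not meet the count filter in mEndo (7, 4, 1 and 1 UMIs; 0.908, 0.674, 0.147 and 0.131 CPM) or in vEndo (6, 8, 6 and 5 UMIs; 4.72, 6.46, 6.52 and 6.29 CPM). It was seen in 1.05, 2.94, 0.673 and 0.19% of cvEC at 2000 UMIs. Immune cells overlapped at 21.8, 4.59, 15.1 and 26.4 CPM (0.45, SE 0.53).

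Ly6c1 lies 46.0 kb beyond Ly6a, and its promoter is shown as the member promoter without an ISRE match. It has 2 RefSeq starts, and the first is at 15:75048788-75049087, minus strand, GRCm38.p6.
Ly6c1: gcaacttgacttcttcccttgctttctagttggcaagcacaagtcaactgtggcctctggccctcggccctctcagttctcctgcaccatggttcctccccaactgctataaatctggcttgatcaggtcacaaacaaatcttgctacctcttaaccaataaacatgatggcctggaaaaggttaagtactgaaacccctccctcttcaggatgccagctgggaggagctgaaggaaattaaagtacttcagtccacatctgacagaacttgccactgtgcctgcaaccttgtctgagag
Mean control levels were 8.60 CPM in cvEC, 4.81 in vEndo and 1.07 in mEndo without overlap, then 0.11 in fibroblasts, 0.01 in cardiomyocytes and 0 in epicardial, immune and mural cells. Ly6c1 was thus the only member with 0 UMIs in immune cells, where 3 UMIs amount to 3.84, 6.89, 3.25 and 3.59 CPM. In the control libraries alone its log2 difference was 3.13 (SE 0.39) for cvEC against mEndo, higher in both libraries, from 76 UMIs in cvEC and 15 in mEndo, and vEndo against mEndo did not meet the count filter. With the eKO libraries included these were 3.71 and 3.27, higher in 4 of 4 libraries. Arterial cvEC held more than other cvEC by 0.87 (SE 0.32; edgeR quasi-likelihood, Benjamini-Hochberg adjusted p 0.0376; 4 of 4 libraries; 1.10 in controls alone), and DESeq2 did not call this (adjusted p 0.254). The arterial level of Ly6c1 was 17.3, 11.4, 9.32 and 7.23 CPM and that of other cvEC 7.67, 6.53, 7.68 and 4.82 CPM. The arterial difference of Ly6c1 did not pass without control 1 (0.63, adjusted p 0.335), control 2 (0.89, 0.0735) or eKO 2 (0.91, 0.0621). Its near-identical paralog Ly6c2 had 0 UMIs in the endothelial classes and 34 in immune cells, and reads shared by the paralogs may have been dropped.

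Between genotypes Ly6c1 in cvEC was 9.71, 7.50, 7.96 and 5.20 CPM, from 53, 23, 30 and 23 UMIs, and the groups overlapped (log2 fold change −0.35, SE 0.30). It did not meet the count filter in mEndo (10, 5, 1 and 2 UMIs), vEndo (3, 9, 4 and 12 UMIs; 2.36, 7.26, 4.35 and 15.1 CPM) or immune cells. It was seen in 1.57, 1.47, 1.35 and 1.33% of cvEC at 2000 UMIs, and in 0 of 4730, 2595, 3544 and 5429 cardiomyocytes.

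**Figure D2:**
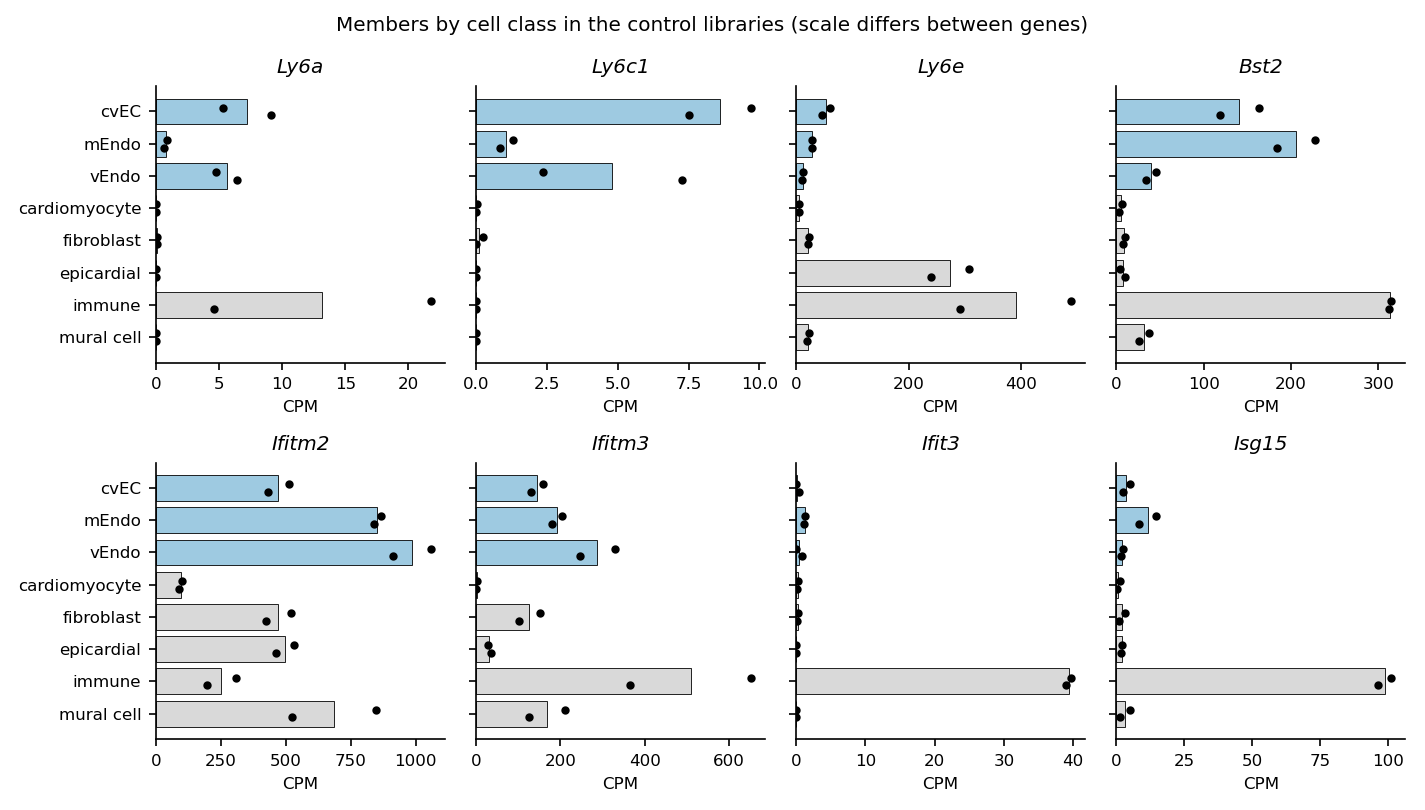
Level of each member in 8 cell classes of the control libraries, in CPM. Bars are means and points libraries, and the scale differs between genes.

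The class differences stood among many: 8597 of 12954 genes passed between cvEC and mEndo, 4257 higher (32.9%) and 4340 lower (33.5%) in cvEC. Of the 2 members read as tests here, Ly6e was higher and Ifitm2 lower in cvEC. The Ly6e test includes eKO values that lay below control in cvEC. Total count scaling shifted the median of all genes in this comparison from −0.04 to −0.21 and gave 3330 higher and 5636 lower, and no count filter gave a median of −0.12. Between vEndo and mEndo 3705 of 12495 passed, 1940 higher (15.5%) and 1765 lower (14.1%), with Ly6e lower in vEndo and Ifitm2 not past the threshold. Between arterial and other cvEC 3259 of 10329 passed, 1648 higher (16%) and 1611 lower (15.6%), or 1320 and 2041 with total count scaling, with Ly6c1, Bst2, Ifitm2 and Isg15 higher in arterial cells. The members kept their direction under total count scaling in each of these differences.

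**Figure D3:**
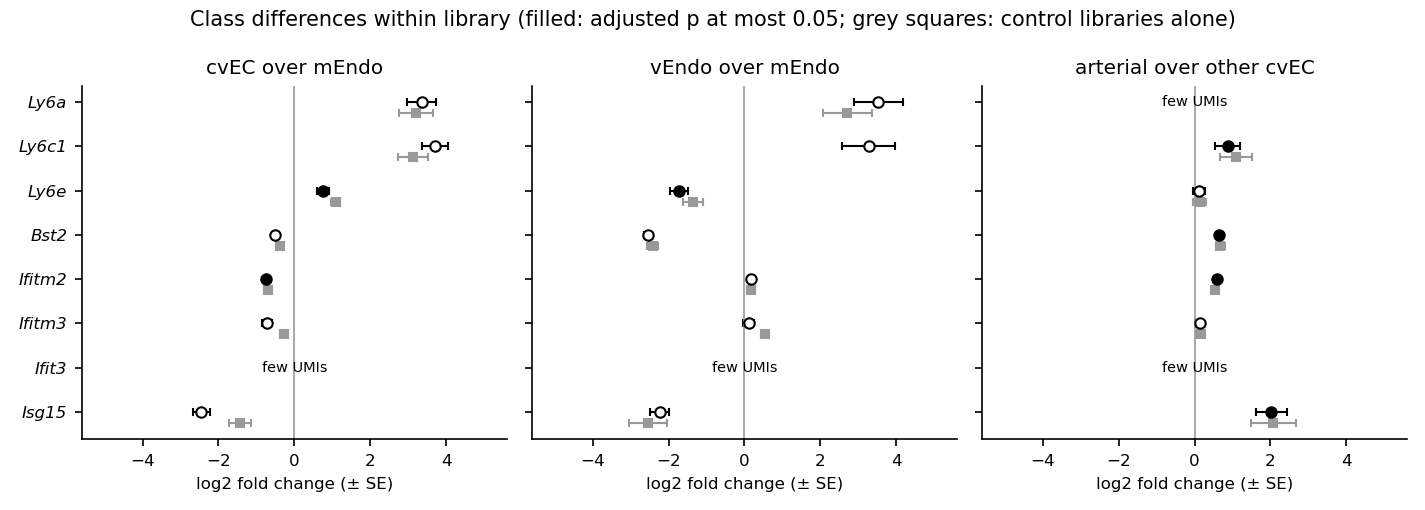
Log2 differences of the members between classes within library (cvEC against mEndo, vEndo against mEndo, arterial against other cvEC), with standard errors, from 4 libraries, with the control libraries alone as grey squares. Filled points passed the test, and open circles did not or were not read as tests.

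The genotype effect in cvEC minus that in mEndo passed for 146 genes above (1.13%) and 119 below (0.919%) of 12954, or 120 and 170 with total count scaling. The total of 265 was 138 without eKO 2 and 435 without control 2. Members were not tested for it, so an Isg15 or Ifitm3 difference seen in mEndo and not in cvEC is not shown to differ between the classes. Ets1 itself did not pass (0.18, edgeR quasi-likelihood, Benjamini-Hochberg adjusted p 0.555, 4 libraries).

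The ISRE match used, GAAA, any 2 bases and GAAA on either strand, was present in 5 of the 6 member promoters with an entry, in 1131 of 32851 mouse promoters (3.44%) and in 19 of 50 other interferon-stimulated genes (38%). Counted per gene, as for the members and the other interferon-stimulated genes, the share was 3.99% of 27025 genes. Isg15 had 3 overlapping matches from base −78 to −57 before the start, Bst2 had 2 from −130 to −115, and Ifit3 had 2 at −156 to −147 and −122 to −113 on the reverse strand. Ifitm3 had 2 after the start, at 3 to 12 and 20 to 29, and Ifitm2 had 1 at −46 to −37. A GAS match, TTC, any 3 bases and GAA, was present in Bst2 at −136 to −128 and in Ifitm3 at 14 to 22, against 8.30% of promoters (9.55% of genes). In both promoters it overlaps an ISRE match. The ETS motif CCGGAAG was present in 0 of the 6 and in 8.86% of promoters (9.93% of genes). A match is a description, not a site or a cause.

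**Figure D4:**
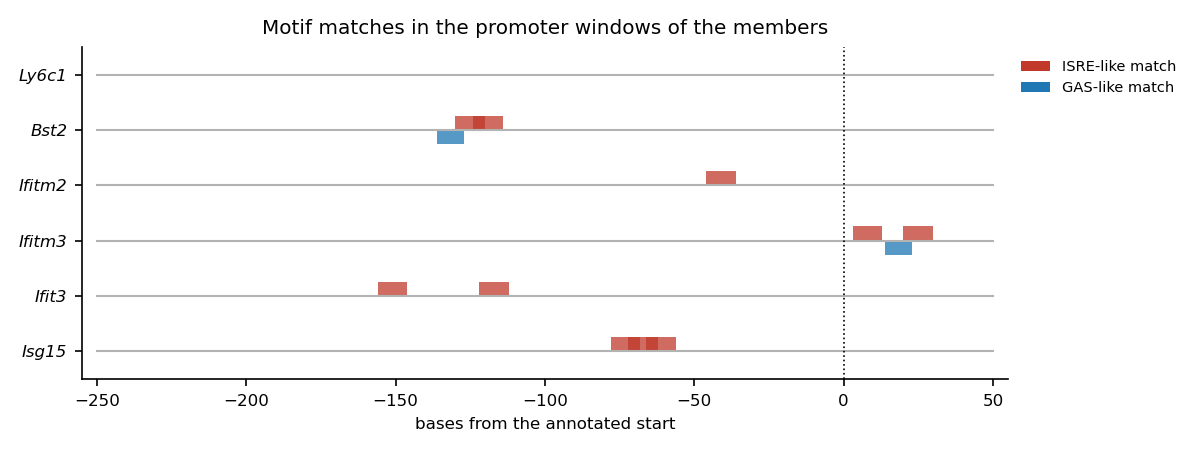
Positions of ISRE and GAS matches in the promoters of 6 members, from 250 bases before to 50 bases after the RefSeq start.

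Other genes of the families were set beside the members in mEndo, where the median over every gene tested was 0.00 log2 units. These lists were chosen with earlier results of these data known, so their counts are not independent of what was seen for the members. Of 63 other type I interferon-stimulated genes, 48 were tested, 14 were higher and 0 lower in eKO (all genes 1.89 and 2.22%), and their median was 0.50. Both eKO libraries lay above both controls for 32 and below for 5 of these 48 (all genes 20.5 and 32.4%). Without control 2 the numbers were 9 higher and 1 lower (Slfn5, named after its value was seen). Ifit1 rose by 3.93 log2 units (SE 0.37; edgeR quasi-likelihood, Benjamini-Hochberg adjusted p 1.65e-04; both eKO libraries above both controls), from 0.908 and 0.505 to 11.9 and 10.1 CPM. Oasl2 rose by 2.43 (SE 0.28, adjusted p 5.44e-04, both eKO libraries above both controls), at 4.02, 4.04, 26.4 and 15.9 CPM. Ifi27l2a rose by 2.12 (SE 0.27, adjusted p 0.00109, both eKO libraries above both controls), at 7.53, 6.06, 37.0 and 21.0 CPM. The 2 genes of the list with the highest mean over the 12 endothelial sums did not pass in mEndo (Lgals9 0.18, adjusted p 0.432; Shisa5 0.27, adjusted p 0.231; both eKO libraries above both controls for each).

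**Figure D5:**
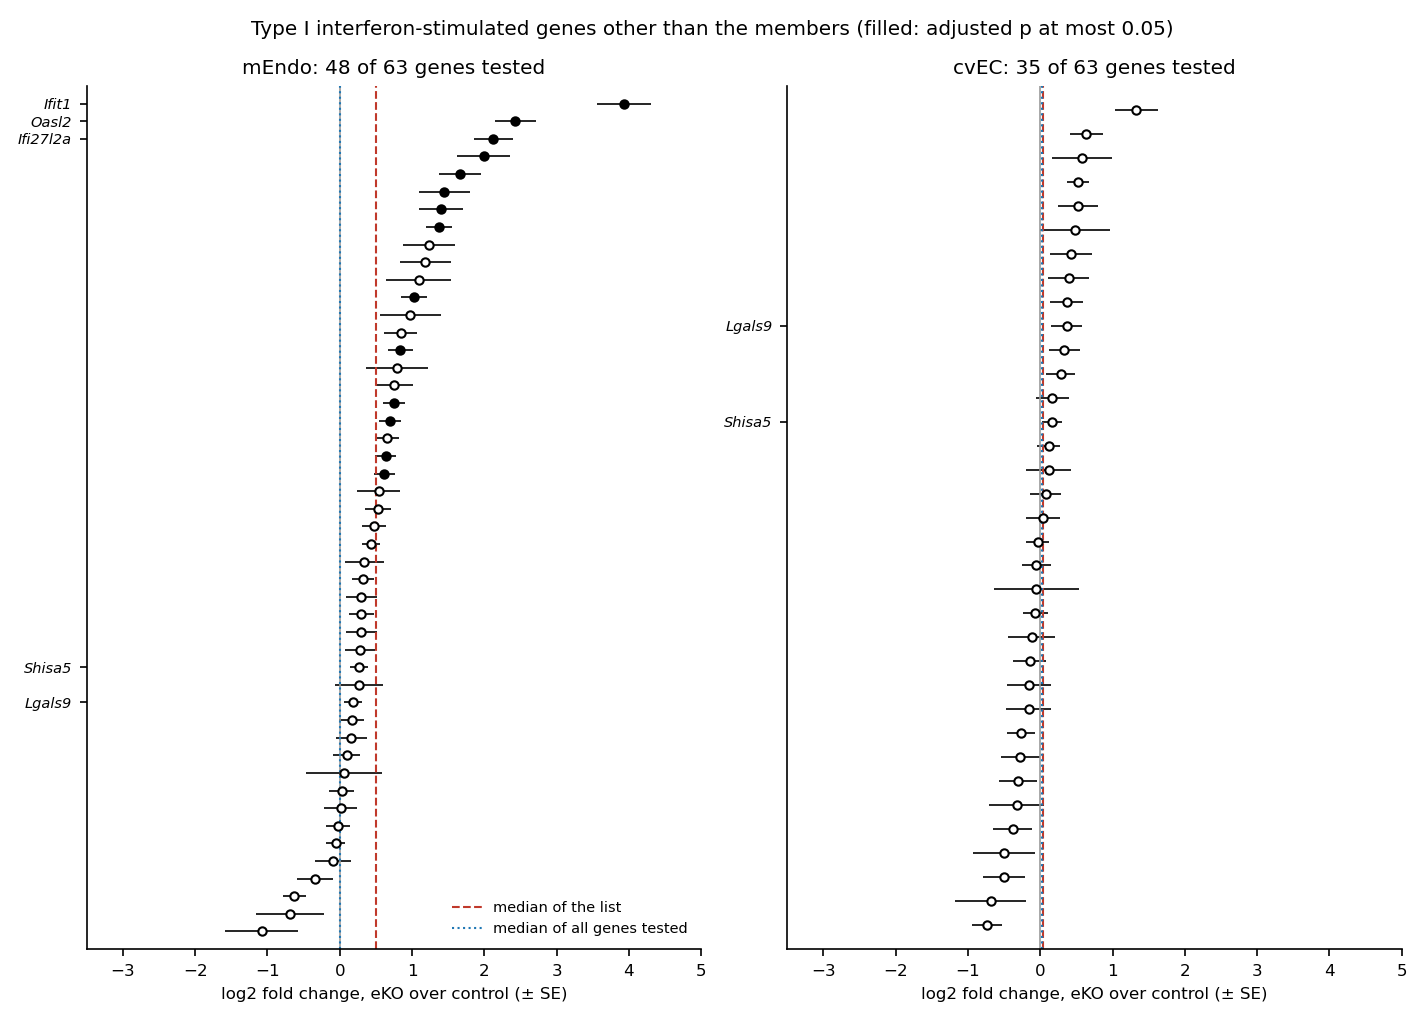
Log2 fold changes, eKO over control, of the other type I interferon-stimulated genes tested in mEndo and cvEC, with standard errors and the medians of the list and of all genes. Filled points passed the test, and only genes named in the text are labelled.

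Among 23 tested interferon gamma-stimulated genes in mEndo the median was 0.18, with 2 higher and 1 lower. Gbp3 rose by 1.29 (SE 0.28; edgeR quasi-likelihood, Benjamini-Hochberg adjusted p 0.0260; both eKO libraries above both controls), but not without control 2 (adjusted p 0.0851) or eKO 2 (0.0570). Psme2 rose by 0.60 (SE 0.14, adjusted p 0.0417, both eKO libraries above both controls), but not without control 1 (0.0831), control 2 (0.168) or eKO 2 (0.116). Icam1 fell by 0.58 (SE 0.15, adjusted p 0.0483, both eKO libraries below both controls), but not without control 1 (0.234), control 2 (0.0759) or eKO 1 (0.0708).

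Of 6 tested MHC class I genes (median −0.03) only H2-D1 passed, falling by 0.68 (SE 0.15; edgeR quasi-likelihood, Benjamini-Hochberg adjusted p 0.0310; both eKO libraries below both controls), though not without control 1 (0.219) or eKO 2 (0.0592). Of 12 nucleic acid sensing genes (median 0.35) Rnaseh2c rose by 0.59 (SE 0.14, adjusted p 0.0382, both eKO libraries above both controls), but not without control 1 (0.207), control 2 (0.0825) or eKO 2 (0.0783). By edgeR quasi-likelihood, 0 of 8 other Ly6 family genes passed (3 at unadjusted p under 0.05; median −0.03), 0 of 2 other Ifitm genes (2 at unadjusted p under 0.05; median 0.52) and 0 of 11 interferon, receptor and signalling genes (5 at unadjusted p under 0.05; median −0.06). The 10 interferon genes counted gave 41 UMIs over all cells, 6 of them in the endothelial classes. Of these, Ifnz gave 34 of the 41 and all 6 in the endothelial classes. Of the receptors, Ifnar1 was 48.7, 39.4, 45.1 and 40.5 CPM in mEndo and Ifnar2 110.3, 102, 106 and 101 CPM, chosen after their values were seen.

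In cvEC, where the median of all genes was 0.02 and 0.364% were higher and 0.187% lower, 0 of 35 other type I genes passed by edgeR quasi-likelihood (4 at unadjusted p under 0.05; median 0.04). Of 15 interferon gamma-stimulated genes (median 0.17) Cxcl10 rose by 1.75 (SE 0.28; edgeR quasi-likelihood, Benjamini-Hochberg adjusted p 0.0268; both eKO libraries above both controls), at 6.60, 3.59, 17.5 and 16.9 CPM. By the same tool 0 passed of 5 other Ly6 genes (2 at unadjusted p under 0.05; median 0.11), 7 MHC class I genes (2; −0.01), 11 interferon, receptor and signalling genes (3; −0.12) and 11 nucleic acid sensing genes (0; 0.09). No other Ifitm gene was tested. Gpihbp1, the Ly6 family member that carries lipoprotein lipase, was at 240.4, 200.5, 141 and 122 CPM (−0.66, adjusted p 0.109, both eKO libraries below both controls).

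In vEndo, with an all-gene median of 0.01 and 0.2% of genes higher and 0.147% lower, 1 of 25 other type I genes passed (median 0.07). This was Ifi27l2a, which rose by 2.27 (SE 0.40; edgeR quasi-likelihood, Benjamini-Hochberg adjusted p 0.0274; both eKO libraries above both controls), but not without control 1 (adjusted p 0.271), control 2 (0.129) or eKO 1 (0.171). Of 10 interferon, receptor and signalling genes (median −0.43) 2 fell. Socs3 fell by 2.07 (SE 0.32, adjusted p 0.0146, both eKO libraries below both controls), though not without control 1 (0.131). Stat3 fell by 0.95 (SE 0.18, adjusted p 0.0407, both eKO libraries below both controls), though not without control 1 (0.376), control 2 (0.138) or eKO 1 (0.101). By edgeR quasi-likelihood 0 passed of 4 other Ly6 genes (1 at unadjusted p under 0.05; median 0.31), 2 other Ifitm genes (0; −0.37), 8 interferon gamma-stimulated genes (3; 0.20), 4 MHC class I genes (0; −0.14) and 5 nucleic acid sensing genes (0; 0.00).

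The families were also counted between classes. In cvEC against mEndo, 4 of 50 other type I genes were higher and 35 lower (median −0.88), and 4 of 24 interferon gamma-stimulated genes were higher and 15 lower (−1.06), beside 32.9% higher, 33.5% lower and a median of −0.04 for all genes. Of 8 MHC class I genes 5 were higher and 2 lower (0.76), of 7 other Ly6 genes 3 and 4 (−0.76), of 11 interferon, receptor and signalling genes 7 and 2 (0.32), and of 12 nucleic acid sensing genes 3 and 2 (0.03). In vEndo against mEndo 1 of 42 other type I genes was higher and 28 lower (−1.27, beside 15.5% higher, 14.1% lower and −0.02 for all genes), and in arterial against other cvEC 4 of 32 were higher and 3 lower (0.23, beside 16% higher, 15.6% lower and 0.00). These sums include the eKO libraries. In the control libraries alone the median of the other type I genes was −0.44 in cvEC against mEndo (35 of 46 negative), −1.01 in vEndo against mEndo (31 of 37) and 0.23 in arterial against other cvEC (12 of 30). For the interferon gamma-stimulated genes it was −0.25 in cvEC against mEndo (13 of 20 negative), beside −0.03 for all genes.

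Markers of other cells and stress genes also differed between genotypes in mEndo, and their part in the members' differences was not tested. Of all genes tested, 1.89% were higher and 2.22% lower in eKO in mEndo. These shares were 0.364 and 0.187% in cvEC, and 0.2 and 0.147% in vEndo. Of 11 dissociation and stress genes 8 were lower in eKO (median −0.79), with sums of 1957, 1638, 1085 and 1328 CPM and Hsp90aa1 the most abundant. In cvEC 0 passed by edgeR quasi-likelihood (4 at unadjusted p under 0.05; median −0.30), and in vEndo 1 was lower, Junb, named after its value was seen (−1.30; edgeR quasi-likelihood, Benjamini-Hochberg adjusted p 0.0341; both eKO libraries below both controls). Cardiomyocyte markers in mEndo summed to 914, 554, 938 and 1171 CPM (1 of 8 higher; Tpm1 the most abundant) and fibroblast markers to 567, 506, 836 and 779 CPM (3 of 7 higher; Col3a1). Coronary markers summed to 118, 101, 156.5 and 207 CPM (1 of 5 higher; Gja4) and lymphatic markers to 45.8, 44.8, 95.6 and 65.1 CPM (1 of 3 higher and 1 lower; Lyve1). Erythroid markers summed to 158, 71.1, 145 and 194 CPM (1 of 5 higher; Hbb-bs), mural cell markers to 55.5, 52.1, 79.7 and 74.1 CPM (1 of 4 higher; Pdgfrb), and valve markers to 200.1, 209, 188 and 166 CPM (1 of 5 lower; Nfatc1). The genes that passed were Tnni1, Col1a2, Lum, Dcn, Fabp4, Lyve1, Hbb-y and Abcc9, higher, and Flt4 and Nfatc1, lower, all named after their values were seen. Endothelial, mural endocardial, arterial, venous, immune, epicardial and megakaryocyte markers gave 0 by edgeR quasi-likelihood, with 1, 0, 0, 3, 1, 0 and 1 at unadjusted p under 0.05, and of neural crest markers none was tested. In cvEC 1 marker of these lists passed, Tnni1 of cardiomyocytes, higher in eKO, and in vEndo 2, Cldn11 of valve cells, higher, and Unc5b of arteries, lower, all named after their values were seen.

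Classes were ranges of marker scores, so cells near a boundary may belong to a neighbour: 51 cvEC (3.54%), 274 mEndo (7.04%) and 86 vEndo (15.9%) cells. The median cell of mEndo had 2116 CPM of mural endocardial, 131 of valve and 0 of coronary markers, and that of cvEC had 7729 of coronary, 88.5 of mural endocardial and 0 of valve markers. The median vEndo cell had 1414 of valve and 459 of mural endocardial markers. Immune markers had a median of 0 in all 3, and cardiomyocyte markers 670.2, 831 and 794 CPM in cvEC, mEndo and vEndo; these may be free RNA or mixed droplets, which cannot be told apart here.

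Pearson r of log2 CPM between members was taken over the 12 sums of 3 classes and 4 libraries, which share libraries and depth. The sums include the eKO and control values that chose the members, so r is partly set by that choice and is a description only. Ifit3 had at most 1 UMI in each cvEC and vEndo sum, so every r with Ifit3 rests on values at the floor there. The 8 strongest pairs were Ifitm2 and Ifitm3 (0.90), Ly6a and Ly6c1 (0.83), Ifit3 and Isg15 (0.76), Ly6c1 and Ifit3 (−0.82), Ly6a and Ifit3 (−0.80), Ly6a and Bst2 (−0.80), Ly6e and Ifitm2 (−0.76), and Ly6a and Isg15 (−0.76). The closest of 6883 other genes were Ccnl1 (0.932), Gypc (0.927) and Rbp7 (0.925) for Ly6a, Cblb (0.911), Arid5a (0.903) and Arl2bp (0.901) for Ly6c1, and Shroom2 (0.971), Lcorl (0.968) and Pde10a (0.967) for Ly6e. For Bst2 they were Decr1 (0.976), Fabp5 (0.966) and Csrp2 (0.954), for Ifitm2 Emp3 (0.988), Ift43 (0.987) and Hsd3b7 (0.987), and for Ifitm3 Ctnna3 (0.934), Gpc6 (0.932) and Dcn (0.924). For Ifit3 they were Tnik (0.92), Smap2 (0.911) and Slf2 (0.889), and for Isg15 they included Smim10l1 (0.905) and Bex3 (0.892).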

How the data were processed

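The deposited files hold a UMI count for each gene and barcode, which per the submitters' notes the authors made with Cell Ranger 7.1.0 on mm10 and analysed with Seurat 4.3.0. The authors' CellBender and DoubletFinder steps were not repeated. Cells were kept if they had between 200 and 7000 genes and no more than 20% mitochondrial, 35% ribosomal and 2% haemoglobin counts, and doublets (0.8% per 1000 cells; 1026, 416, 677 and 1531) were removed by simulated doublets. Libraries shared at most 0.44% of barcodes with one another. Classes were gated per cell from summed marker UMIs in cells with at least 1000 UMIs.

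Counts summed per class and library were fitted with edgeR 4.0.16 (TMM, filterByExpr, quasi-likelihood, Benjamini-Hochberg over all genes tested, threshold 0.05), with library as block for class differences, under R 4.3.3 and Python 3.11.15. The library was the replicate, at 2 per group. The code was tested on simulated data. The fits were repeated with DESeq2 1.42.0, with scaling to total counts, without the count filter, with replicate numbers as blocks, with each library left out, with Leiden clusters (igraph 0.11.9), with a stricter gate, with doublets kept and with a stricter cell filter. Shares of cells were also taken at 1000 UMIs. Leaving out cells with an immune marker UMI, and class differences of members and lists in the control libraries alone, were added after seeing the data. The latter leave 1 residual degree of freedom, so their p is not given.

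The members and the lists were chosen with earlier results of these data known. Named genes were Ets1, the members, the 2 genes of each family list with the highest mean level, up to 3 with the largest log2 fold change per class and direction among those that passed, and 3 neighbours in pattern per member with a mean of at least 20 CPM, of which not all are printed. Gene positions are GENCODE vM21 and promoters RefSeq. No sample was unassigned, and 8 listed genes were not in the files.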

Additional observations from a re-analysis of the deposited data

Results flagged for a closer look

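A test of the difference between the genotype effect in cvEC and that in mEndo (interaction, edgeR quasi-likelihood, 4 libraries) picked out 2 genes of the interferon lists. For Rnf213 the effect in cvEC minus that in mEndo was −0.79 log2 units (SE 0.19, Benjamini-Hochberg adjusted p 0.0123, 4 libraries). Rnf213 lies outside the naming rule and was chosen after its values were seen. Without eKO 2 it did not pass (adjusted p 0.150), nor did it with DESeq2 (0.743). For Socs3 the difference was 0.84 (SE 0.22, Benjamini-Hochberg adjusted p 0.0270, 4 libraries). It did not pass without control 2 (0.128) or eKO 1 (0.252), or with DESeq2 (0.780). The interaction was described over 50 other type I genes, with 0 above, 1 below and a median of −0.35 beside 0.01 for all genes. No cause was tested for either gene.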

How the results depend on the processing

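Of 261 values of the members' class differences under an alternative, including those the report does not read as tests, 240 kept their direction and side of the threshold, 16 no longer passed, 3 newly passed and 2 changed sign. The sign changes were both without control 1: with a library left out, Ifitm3 in vEndo against mEndo ranged from −0.0724 to 0.257 and Ly6e in arterial against other cvEC from −0.0820 to 0.2399. Ly6a gave no arterial value without control 2, Ifit3 no class difference without either eKO library, and Ly6e no vEndo genotype value without control 1, since the count filter was not met there. Of 201 values of members between genotypes, which had no test, 185 stayed within the spread of replicates and 16 moved. Of 180 values of Ets1 and named list genes 146 held and 34 no longer passed. Of 48 shares of cells 11 held and 37 moved when depth per cell was changed.

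The number of genes past the threshold also moved. With no count filter it was 1187 in mEndo, 344 in cvEC, 1 in vEndo and 400.0 for the interaction; more genes were then tested. With DESeq2 it was 1882 for arterial cells and 49 for the interaction. Total count scaling gave 95 in cvEC, Leiden clusters 127 in cvEC, and the stricter gate 172 for the interaction. With a library left out, which leaves a lone sample assumed to vary like the other group, it was 348 to 1340.0 in mEndo, 126 to 505 in cvEC, 10 to 68 in vEndo, 138 to 435 for the interaction, and 9 to 14 for the other type I genes higher in eKO mEndo. The cause of these moves was otherwise not tested.

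Treating the replicate number as a block (replicate block) gave 865 in mEndo, 185 in cvEC and 115 in vEndo. The replicate numbers did not pair the libraries: correlations of deviations between libraries of the same number were −0.09, 0.01 and −0.03 in cvEC, mEndo and vEndo.

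Depth limits the low members. With 3 UMIs as floor, 0.389 to 0.505 CPM could be seen in mEndo, 0.55 to 0.978 in cvEC and 2.36 to 3.77 in vEndo, so Ly6a, Ly6c1 and Ifit3 rest on few UMIs. Few UMIs also lie behind Ly6e in vEndo and Isg15 in vEndo and in the arterial and other parts of cvEC. With 2 pooled libraries per group, embryos and litters cannot be told apart from genotype, and sex was not separated. Free RNA and boundary cells were measured, not removed. Reads shared by paralogs cannot be placed. No protein or interferon level was measured.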
